A study of Rattus norvegicus with 36 samples.

Results

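Neurofascin (Nfasc), the contactins Cntn1 and Cntn2, and their partners Cntnap1, Nrcam, Ncam1 and L1cam were followed across 6 groups of CG-4 cells, a rat line of oligodendrocyte progenitors. These 7 adhesion genes, of 13206 genes named in the gene-level table, were chosen by symbol: each had 1 of the 18901 transcript clusters of the gene-level table, and together they had 191 of the 204586 probe sets of the exon-level table. The groups were untreated cells, cells given a small interfering RNA (siRNA) that was non-silencing, against QKI or against hnRNP A1, and lines stably carrying a short hairpin RNA (shRNA) that was non-silencing or against QKI. Each group had 3 arrays, named biological replicates by the labels. All groups were CG-4 cells grown with conditioned medium of B104 neuroblastoma cells, without axons, and whether each shRNA line is 1 clone or a mixed population is not given in the sources used here. QKI is an RNA-binding protein required for myelination and hnRNP A1 is a splicing regulator. The comparisons ask how knockdown of either changes the RNA of these cells.

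At the paranode, where myelin meets the axon beside each node of Ranvier, a glial isoform of neurofascin binds a complex of contactin-1 and Caspr, the product of Cntnap1, in the axon membrane. Contactin-2 joins the adjoining juxtaparanode, and a neuronal isoform of neurofascin and Nrcam lie at the node itself. Neurofascin, Nrcam and L1cam are members of the L1 family, which anchors to the spectrin skeleton through ankyrins, and Ncam1 is the neural cell adhesion molecule, whose polysialylated form is carried by oligodendrocyte progenitors. Nfasc and Ncam1 are both known for extensive alternative splicing, which is why the exon-level signal was examined beside the gene level.

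Upstream sequences were available for 3 of the 7 genes, with 2 annotated starts for Nfasc, and those of Nfasc and Cntn1 are printed because Nfasc varied most among the groups and Cntn1, its partner, was bright and varied little. They are the 250 bases before each start, from RefSeq on assembly GRCr8. The first Nfasc start lies at chr13:46701165-46701414 on the minus strand, the second at chr13:46627849-46628098 on the minus strand, and that of Cntn1 at chr7:125252060-125252309 on the plus strand. Capitals mark the motif ACTAAC, the core of the RNA element that QKI binds.
Nfasc, first start: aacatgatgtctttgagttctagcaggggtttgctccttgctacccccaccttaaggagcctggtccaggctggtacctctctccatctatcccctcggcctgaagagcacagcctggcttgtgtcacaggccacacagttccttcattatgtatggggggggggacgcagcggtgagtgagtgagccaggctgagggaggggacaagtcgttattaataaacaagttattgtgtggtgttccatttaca
Nfasc, second start: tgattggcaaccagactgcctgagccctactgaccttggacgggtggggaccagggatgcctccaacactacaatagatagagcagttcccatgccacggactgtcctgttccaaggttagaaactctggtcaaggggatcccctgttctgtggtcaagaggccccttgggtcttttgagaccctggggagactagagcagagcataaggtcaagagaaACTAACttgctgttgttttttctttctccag
Cntn1: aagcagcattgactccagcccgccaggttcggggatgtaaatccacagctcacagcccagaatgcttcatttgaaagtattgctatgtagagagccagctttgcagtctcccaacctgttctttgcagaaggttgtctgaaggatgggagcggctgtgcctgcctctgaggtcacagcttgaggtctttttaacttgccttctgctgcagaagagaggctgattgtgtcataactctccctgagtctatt
The motifs searched on both strands were ACTAAC and ACTAAT for QKI and ACAAAG and ACAATG for SOX proteins such as Sox10, a transcription factor of the oligodendrocyte lineage. The QKI letters were added after the sequences had been read. Of the 4 upstream sequences searched, Cntn2 included, that of the second Nfasc start held 1 match, ACTAAC on the printed strand, beginning 31 bases before the start. That stretch ends in a run of pyrimidines followed by ag, the way introns end. ACTAAC occurred on the strand of the gene in 2.78% of the 33469 upstream sequences of this length and on either strand in 5.37%, and any of the 4 motifs in 32.9%. These shares are of sequences before annotated starts, and the share among intron ends was not counted. A match of letters is a description and not a binding site.

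The deposited values are log2 intensities. Correlations between arrays ran from 0.937 to 0.991, and 7 of the 18 arrays had their closest partner in another group. In the group given QKI siRNA, arrays 1 and 2 correlated at 0.984 with each other and at 0.960 and 0.969 with array 3. For the line labelled QKI shRNA these values were 0.990 against 0.962 and 0.958, in untreated cells 0.991 against 0.969 and 0.971, and after hnRNP A1 siRNA 0.985 against 0.974 and 0.968. Qki itself read 9.99, 10.02 and 9.67 after QKI siRNA against 11.47, 11.39 and 11.14 with non-silencing siRNA. The line labelled QKI shRNA read 10.65, 10.35 and 11.14 against 10.90, 11.01 and 10.99, so that array 3 of this line lay above every array of its control. The change of Qki there was -0.25 ± 0.22 (adjusted p = 0.656), and the label is kept only as a label. Against untreated cells, Qki changed by -0.73 ± 0.22 in this line (limma, adjusted p = 0.133). In the non-silencing line it changed by -0.48 ± 0.22 (adjusted p = 0.327). The arrays overlapped in both, and the size of the change thus depends on the control. Hnrnpa1 read 7.90, 7.85 and 7.65 after its siRNA against 8.60, 8.47 and 8.44. Its change, -0.70 ± 0.19, was not called (limma, adjusted p = 0.393). All 3 arrays were also below the controls for Hnrnpa1 after QKI siRNA (-0.33 ± 0.19) and for Qki after hnRNP A1 siRNA (-0.28 ± 0.22), neither called. Of the progenitor markers 7 of 9 were measured and 6 of them, including Olig1, Sox10 and Ptprz1, lay above the 75th percentile of clusters. The remaining progenitor marker, Cspg4, lay below the 50th percentile. Of 9 myelin genes measured, Mbp, Cnp, Mag and Ugt8 also lay above the 75th percentile, and 4 others lay below the 50th. None of the 6 microglial, 3 Schwann cell and 4 fibroblast markers measured lay above the 75th percentile, whereas the neuronal markers Gap43 and Map2 and the astrocyte marker S100b did.

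The 7 genes fell into 3 ranges of signal. Cntn1 had a mean of 12.40 over the 18 arrays, at the 99.95th percentile of all clusters, Ncam1 8.34 at the 94.7th and Nfasc 7.47 at the 90.1st. Nrcam averaged 4.29, at the 56.7th percentile. Cntn2, Cntnap1 and L1cam averaged 3.45, 3.45 and 3.44, next to the 25th percentile of 3.445, and no detection call was used here to say whether they were above background. Probes differ in brightness, so these places describe each cluster's signal and do not rank the genes by amount of RNA. Of the 191 probe sets, 141 passed the same filter at the exon level (25th percentile, 3.399): every probe set of Nfasc (25), Cntn1 (26) and Ncam1 (19), 34 of 38 for Nrcam, 10 of 25 for Cntn2, 14 of 27 for Cntnap1 and 13 of 31 for L1cam.

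**Figure D1:**
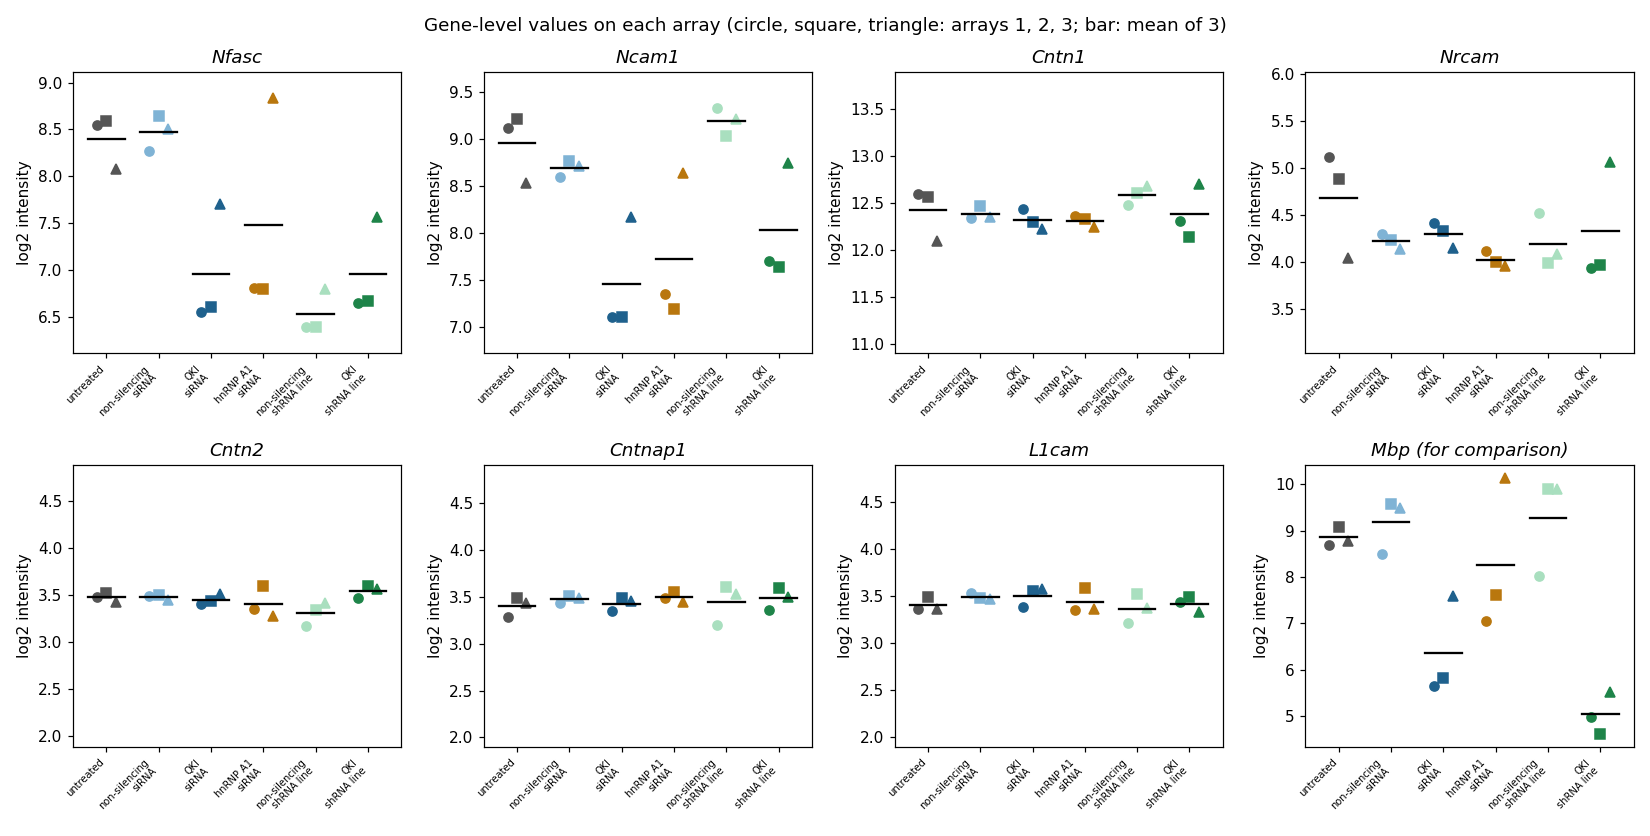
Gene-level log2 intensity (vertical axis, with a different range in each panel) of the 7 adhesion genes and of Mbp on each of 18 arrays, by group, with a bar at the mean of 3. Nfasc and Ncam1 differ among the groups, the triangles (array 3) lie above the circles and squares for both after either targeting siRNA and in the QKI shRNA line, and Cntn1 stays between 12.1 and 12.7.

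Nfasc, the glial partner of the axonal contactin complex, was lower in the non-silencing shRNA line than in untreated cells, and this was the only call among the 7 genes in the 5 comparisons of groups. It read 8.54, 8.59 and 8.08 in untreated cells and 6.39, 6.40 and 6.80 in the line. The 3 arrays of the line were all below the 3 untreated arrays. The log2 change was -1.87 ± 0.44 (limma's standard error, n = 3 arrays per group), a 3.66-fold lower level, with an adjusted p of 0.0315. In this comparison 3.26% of all clusters were called, 468 higher and 148 lower in the line. Against the non-silencing siRNA group, a comparison added after the values were seen, the line was also lower, by -1.94 ± 0.44 (adjusted p = 0.0211), where 4.71% of clusters were called. No shRNA was directed at Nfasc in this line, and the labels do not separate the hairpin, the selection of a stable line and later passages, which cannot be told apart here. Markers of other cells were called in the same comparison: of 10 neuronal markers Nefl rose by 1.29, and of 6 astrocyte markers S100b rose by 1.56 and Slc1a3 fell by 1.30. Of 9 myelin genes, Mag and Mog fell. The mean of the neuronal list ran from 5.36 to 5.75 in untreated cells and 5.41 to 5.49 in the line, and that of the astrocyte list from 4.60 to 5.18 and 4.47 to 4.69. Their part in the Nfasc value was not tested. The call was lost with each array centred on its median (-1.89, adjusted p = 0.0803). It was also lost without array 1 or 2 of the untreated cells (adjusted p = 0.120 and 0.117) and without array 1, 2 or 3 of the line (0.0843, 0.0978 and 0.0755), while the change itself ran from -2.01 to -1.78 in these 5 settings.

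After QKI siRNA, Nfasc read 6.56, 6.61 and 7.71 against 8.27, 8.64 and 8.51 with non-silencing siRNA. All 3 knockdown arrays were below all 3 controls, with array 3 closest to them. The log2 change was -1.52 ± 0.44, with a 95% interval from -2.46 to -0.57. It did not pass the adjustment (limma, adjusted p = 0.365). Here 0% of clusters were called, Qki included, while 1721 clusters (9.11%) had an unadjusted p under 0.05, and Nfasc was 188th of them by p.

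With hnRNP A1 siRNA, Nfasc read 6.81, 6.80 and 8.83. Arrays 1 and 2 were below every control array and array 3 was above every one, so the groups overlapped. The log2 change was -0.99 ± 0.44 (adjusted p = 0.679), in a comparison that called 0.00529% of clusters, 1 cluster in all. Nfasc in cells with non-silencing siRNA differed from untreated cells by 0.07 ± 0.44 (adjusted p = 0.958), where 0.0794% of clusters were called.

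In the line labelled QKI shRNA, Nfasc read 6.65, 6.67 and 7.56, which overlapped the non-silencing line. The log2 change was 0.43 ± 0.44, with an interval from -0.51 to 1.37 (adjusted p = 0.725), while 10.3% of clusters were called. The arrays of both shRNA lines lay below those of untreated cells, and the control of this comparison was itself the lowest of the 6 group means. Set against untreated cells instead, a control that both comparisons then share, Nfasc differed by -1.44 ± 0.44 in the line labelled QKI shRNA (adjusted p = 0.133) and by -1.45 ± 0.44 after QKI siRNA (adjusted p = 0.151), so the sign in this line depends on the control. The change in the stable pair (the 2 shRNA lines) minus that in the siRNA pair was 1.95 ± 0.63, which did not pass the threshold (adjusted p = 0.0998, with 4.71% of clusters called). It did pass with the replicate number as a block (adjusted p = 0.0463), with only the groups compared in the fit (0.0313) and without array 3 of the QKI siRNA group (2.32, adjusted p = 0.0448). For Qki itself this difference was called, at 1.19 ± 0.32 (adjusted p = 0.0432).

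Ncam1, the neural cell adhesion molecule, had lower values after both targeting siRNAs and in the line labelled QKI shRNA than in their controls, but none of the 3 differences passed the adjustment. Its arrays read 7.71, 7.63 and 8.75 in the line labelled QKI shRNA and 9.33, 9.04 and 9.21 in the non-silencing line. The 3 arrays of the line labelled QKI shRNA were all below the controls. Array 3, the one with Qki above every control array, was closest to them. The log2 change was -1.17 ± 0.37 (interval from -1.96 to -0.37, adjusted p = 0.0620). In this comparison Mbp, Cnp and Ugt8 fell among 9 myelin genes, Olig1 fell among 7 progenitor markers, S100b fell by 3.68 while Gfap and Slc1a3 rose by 2.31 and 1.42 among 6 astrocyte markers, and Nefm rose by 0.73 among 10 neuronal ones. The neuronal and astrocyte lists averaged 5.47 to 5.66 and 4.47 to 4.98 in this line, and their part in the Ncam1 value was not tested. Over all clusters, the deviations of equal replicate numbers in these 2 lines correlated weakly, at 0.25, 0.142 and 0.153. For Ncam1 itself, array 3 differed from the mean of arrays 1 and 2 by 1.08 in this line and 0.03 in the non-silencing line. With the number as a block the adjusted p was 0.0389. Without array 3 of this line the change was -1.53 (adjusted p = 0.0141). The non-silencing line, the control here, had the highest Ncam1 mean of the 6 groups, at 9.20. With untreated cells as the control, the change in the line labelled QKI shRNA was -0.93 ± 0.37. The arrays then overlapped, and it was not called (limma, adjusted p = 0.312).

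After QKI siRNA, Ncam1 read 7.11, 7.11 and 8.17 against 8.60, 8.77 and 8.72, again with no overlap. The log2 change was -1.24 ± 0.37 (interval from -2.03 to -0.44, adjusted p = 0.376). After hnRNP A1 siRNA it read 7.35, 7.19 and 8.65. Array 3 lay within the range of the controls there, and the change was -0.97 ± 0.37 (adjusted p = 0.591). The change of Ncam1 in the stable pair minus that in the siRNA pair was 0.07 ± 0.53, with an interval from -1.06 to 1.19.

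In untreated cells Ncam1 read 9.12, 9.21 and 8.53, and these overlapped the non-silencing line, whose mean was higher. The difference was 0.24 ± 0.37 (adjusted p = 0.872). Whether the change of Ncam1 differs from that of Nfasc in this comparison was not tested, since their values come from different probes.

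**Figure D2:**
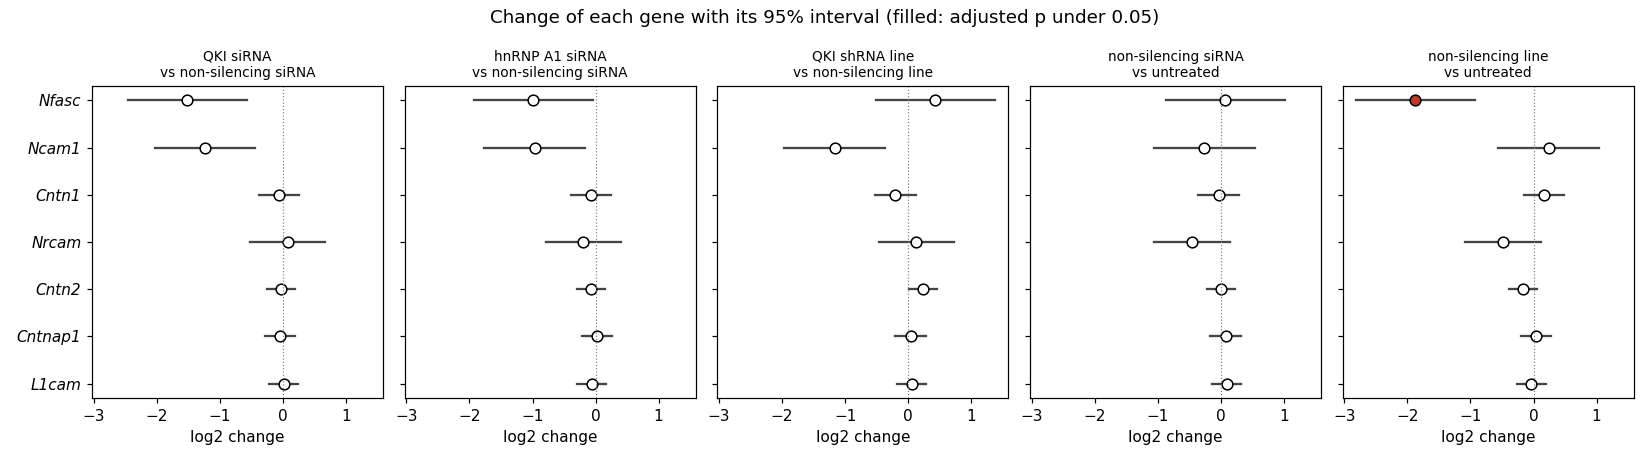
Log2 change of the 7 genes (rows) in 5 comparisons (panels) from limma, with 95% intervals, 3 arrays per group. The filled point, Nfasc in the non-silencing shRNA line against untreated cells, is the one with an adjusted p under 0.05. The intervals of Nfasc and Ncam1 after either siRNA lie below 0 without adjustment.

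Cntn1, the contactin that binds glial neurofascin and is also made by oligodendrocyte progenitors, was bright on every array and varied little. Its lowest array value was 12.10, on array 3 of the untreated cells, and its highest 12.70, on array 3 of the line labelled QKI shRNA. The change was -0.06 ± 0.15 after QKI siRNA (interval from -0.38 to 0.26), -0.07 ± 0.15 after hnRNP A1 siRNA (interval from -0.39 to 0.25) and -0.20 ± 0.15 in the line labelled QKI shRNA (interval from -0.52 to 0.12). None of these passed the adjustment (adjusted p of 0.935, 0.986 and 0.552). The intervals leave out changes as large as those of Nfasc and Ncam1 after QKI siRNA. The highest value of any cluster on the arrays was 14.3, and compression of differences near the top of the scale was not tested.

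Nrcam, which clusters sodium channels at the node together with neurofascin, had its highest group mean in untreated cells. Its arrays there read 5.11, 4.89 and 4.04, against 4.29, 4.24 and 4.14 with non-silencing siRNA and 4.52, 3.99 and 4.09 in the non-silencing line. Array 3 of the untreated cells lay among the values of the other groups. The change was -0.46 ± 0.28 for non-silencing siRNA (adjusted p = 0.588) and -0.48 ± 0.28 for the non-silencing line (adjusted p = 0.464). Without array 3 of the untreated cells these were -0.78 and -0.80, neither called, and with array 3 of the line labelled QKI shRNA also left out of the fit the same values were called (adjusted p = 0.0306 and 0.00667). Against the non-silencing controls, the change of Nrcam was 0.08 ± 0.28 after QKI siRNA, -0.20 ± 0.28 after hnRNP A1 siRNA and 0.13 ± 0.28 in the line labelled QKI shRNA, with adjusted p from 0.909 to 0.973.

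Cntn2, Cntnap1 and L1cam stayed between 3.17 and 3.60, 3.20 and 3.61, and 3.21 and 3.58 on all 18 arrays. Their group means spanned 0.24, 0.09 and 0.14. The largest difference, that of Cntn2 in the line labelled QKI shRNA, was 0.24 ± 0.10, with all 3 arrays above the non-silencing line, and it did not pass the adjustment (adjusted p = 0.198). At so dim a signal a change in RNA could go unseen.

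Ordered by group mean, Nfasc ran from non-silencing siRNA (8.47 ± 0.19, SD) and untreated cells (8.40 ± 0.28) through hnRNP A1 siRNA (7.48 ± 1.17), the line labelled QKI shRNA (6.96 ± 0.52) and QKI siRNA (6.96 ± 0.65) to the non-silencing line (6.53 ± 0.23). For Ncam1 the order was the non-silencing line (9.20 ± 0.15), untreated cells (8.96 ± 0.37), non-silencing siRNA (8.70 ± 0.09), the line labelled QKI shRNA (8.03 ± 0.62), hnRNP A1 siRNA (7.73 ± 0.80) and QKI siRNA (7.46 ± 0.61). The arrays of neighbouring groups overlapped at every step of the order, for each of the 7 genes.

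In the 3 groups given an RNA directed at QKI or hnRNP A1, called targeted groups here, array 3 read higher for Nfasc and Ncam1 than arrays 1 and 2. Relative to the mean of arrays 1 and 2, Nfasc on array 3 was higher by 1.12 after QKI siRNA, 2.03 after hnRNP A1 siRNA and 0.90 in the line labelled QKI shRNA. For Ncam1 these differences were 1.06, 1.38 and 1.08. Mbp, which encodes myelin basic protein, was higher on the same arrays by 1.84, 2.81 and 0.72. Array 3 differed in the other groups too. With non-silencing siRNA it differed by 0.05 for Nfasc and 0.03 for Ncam1, in the non-silencing line by 0.40 and 0.03, and in untreated cells by -0.49 and -0.63. For Mbp the difference was 0.45 with non-silencing siRNA, -0.10 in untreated cells and 0.92 in the non-silencing line, which is more than in the line labelled QKI shRNA. With arrays 1 and 2 only, a choice made after these values were seen, Nfasc changed by -1.87 after QKI siRNA (adjusted p = 0.000185) and by -1.65 after hnRNP A1 siRNA (0.000566), and Ncam1 by -1.58 (0.000616), -1.415 (0.00186) and, in the line labelled QKI shRNA, -1.52 (0.000116). Since the arrays were set aside because of these genes, those p-values are no independent support.

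With each group's mean removed, Nfasc and Ncam1 correlated at 0.95 over the 18 arrays, a value reached with Nfasc by 8 of 18900 other clusters (0.0423%), and at 0.467 with the group means kept in. Nfasc and Mbp correlated at 0.863 within groups, which 0.683% of clusters reached with Nfasc, and Ncam1 and Mbp at 0.721, which 3.8% reached with Ncam1. Cntn1 and Nrcam correlated with each other at 0.809 (reached by 1.53% with Cntn1) and with Qki at 0.914 and 0.849 (reached by 0.175% and 0.746%). Nfasc, Ncam1 and Mbp correlated with Qki within groups at only 0.119, 0.262 and -0.070. The dim Cntn2, Cntnap1 and L1cam correlated with one another at 0.650 to 0.726. Over the 9 arrays of the targeted groups alone the within-group value of Nfasc and Ncam1 was 0.972, and over the 9 of the control groups 0.744. For Nfasc and Mbp these values were 0.97 and 0.491. Values of 1 array share an RNA sample and a hybridisation, so these are descriptions. The mean level of 9 myelin genes ran from 4.95 to 5.70 after QKI siRNA, 5.39 to 6.14 after hnRNP A1 siRNA and 4.70 to 4.92 in the line labelled QKI shRNA. It ran from 5.98 to 6.20 in untreated cells, 5.83 to 6.09 with non-silencing siRNA and 5.46 to 6.02 in the non-silencing line. The part of these levels in the Nfasc and Ncam1 values was not tested, and in such bulk RNA fewer cells of a type and less RNA per cell cannot be told apart.

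**Figure D3:**
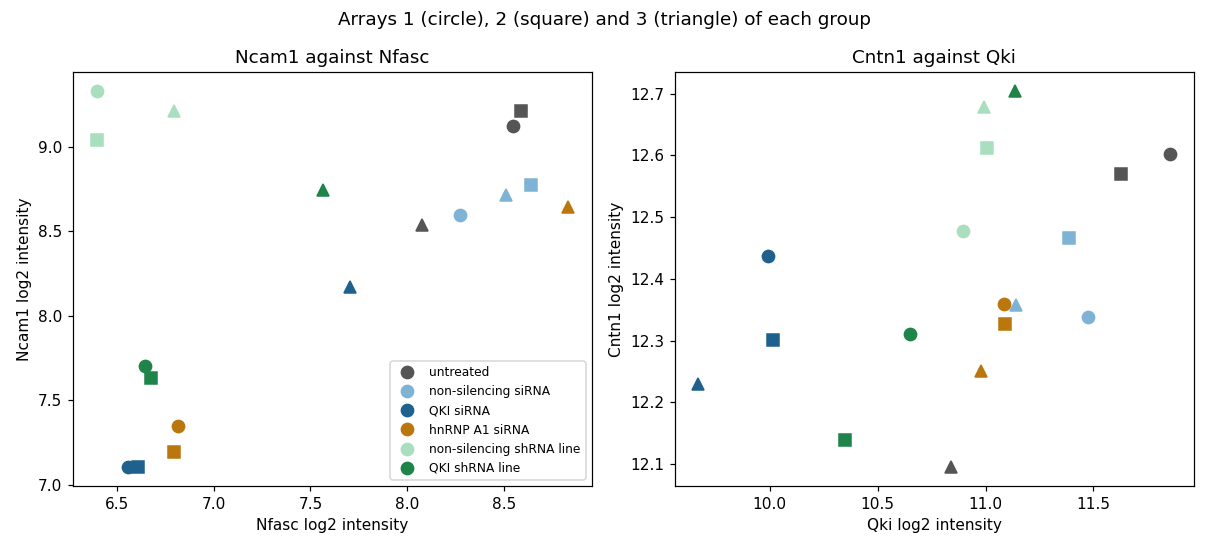
Left, Ncam1 against Nfasc, and right, Cntn1 against Qki, as log2 intensity on each of 18 arrays, coloured by group and shaped by array number. On the left, arrays 1 and 2 of the targeted groups lie at the lower left, their arrays 3 lie nearer the controls, and the non-silencing shRNA line stands apart with low Nfasc and high Ncam1.

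Among 10859 named genes at or above the 25th percentile, those most like Nfasc over the 18 arrays by Pearson's r were Abca2, a lipid transporter of the endosomal membrane (0.940), Phf21a, a histone-reading part of a corepressor complex (0.899), and Igf2bp2, an RNA-binding protein (0.897). Abca2 averaged 7.82 in untreated cells, 8.28 with non-silencing siRNA, 6.92 after QKI siRNA, 7.37 after hnRNP A1 siRNA, 6.99 in the non-silencing line and 6.90 in the line labelled QKI shRNA. Those most like Ncam1 were Erc1, a scaffold protein (0.924), Ift81, a part of the intraflagellar transport complex (0.918), and Myo18a, an unconventional myosin (0.916).

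At the exon level, the probe sets of Nfasc and of Ncam1 moved largely as blocks. After QKI siRNA all 25 Nfasc probe sets had lower log2 values than with non-silencing siRNA, from -2.91 to -0.21 with a median of -1.36, and all 19 of Ncam1, from -1.86 to -0.54 with a median of -1.17. After hnRNP A1 siRNA the same 25 and 19 were lower, with medians of -0.97 and -0.84. In the line labelled QKI shRNA, 21 of the 25 Nfasc probe sets were higher than in the non-silencing line (median 0.36), whereas the 19 of Ncam1 were lower (median -1.27) and 7 of them were called on their log2 value, where 8.46% of all retained probe sets were called. In the non-silencing line all 25 of Nfasc were below untreated cells (median -1.76) and 6 were called, against 1.54% of all. Probe sets of 1 gene share its RNA and are not replicates of a condition. The 26 probe sets of Cntn1 differed by -0.41 to 0.49 at most in the 5 comparisons with a control.

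**Figure D4:**
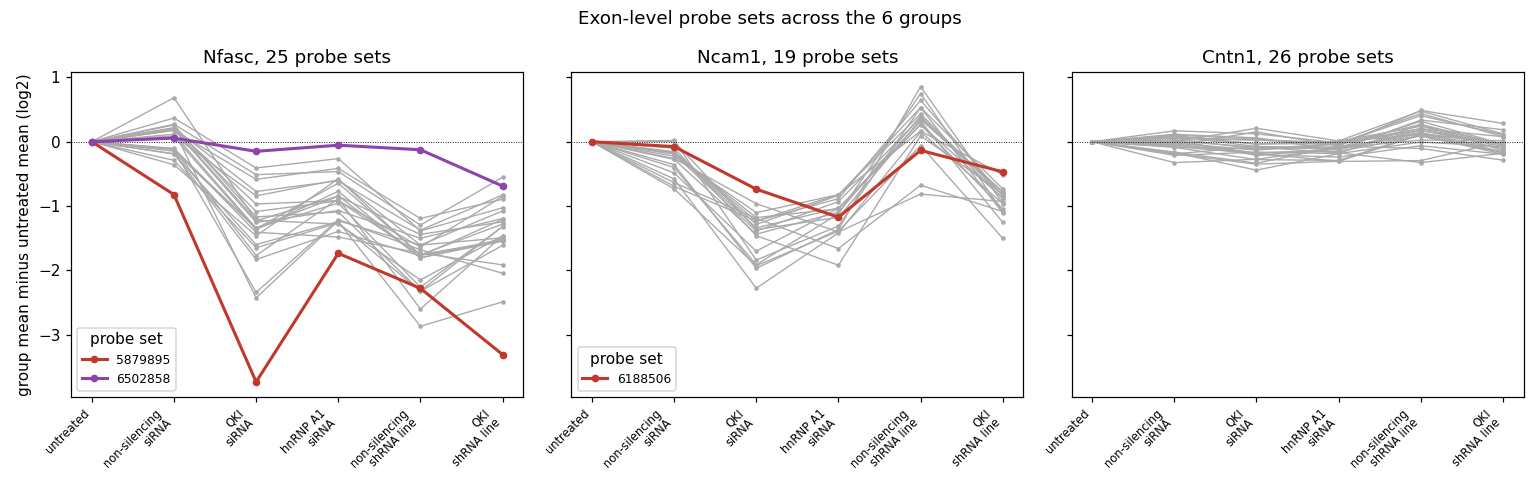
Group mean of each probe set of Nfasc, Ncam1 and Cntn1 minus its mean in untreated cells (log2), across the 6 groups in a fixed order. Coloured lines are probe sets described in the text, most lines of Nfasc and of Ncam1 run together (the dim 6502858 stays higher), and those of Cntn1 stay near 0.

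To set apart exon usage, each probe set was expressed as a splicing index, its log2 value minus the mean of its gene's retained probe sets on the same array. Of the 141 probe sets of the 7 genes, limma called 0 in any of 6 comparisons. The comparisons called 0% of 115440 probe sets for QKI siRNA, 0% for hnRNP A1 siRNA, 0% for QKI siRNA against hnRNP A1 siRNA, 0.566% for the line labelled QKI shRNA, 0.00347% for non-silencing siRNA and 0.0858% for the non-silencing line. An unadjusted p under 0.05 was found by limma for 12 of the 141 (8.51%) after QKI siRNA, against 8.3% of all probe sets. It was found for 12 in the line labelled QKI shRNA, against 12.5%, and for 7 (4.96%) after hnRNP A1 siRNA, against 6.35%. It was found for 17 (12.1%) in the non-silencing line, against 12.4%, for 2 (1.42%) with non-silencing siRNA, against 5.21%, and for 12 between QKI siRNA and hnRNP A1 siRNA, against 4.7%. The shares after QKI siRNA and in the non-silencing line were close to those of all probe sets. That between the 2 siRNAs was above, and the others were below. The test of limma's diffSplice also called 0 of the 141 in each of the 6 comparisons.

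The lowest adjusted p of an Nfasc probe set was that of 6502858, whose index was -4.47 ± 0.29 (SD) in untreated cells and -2.83 ± 0.61 in the non-silencing line, a difference of 1.64 ± 0.34 (adjusted p = 0.0700). Its log2 value hardly moved, at 3.80 and 3.68, and its mean of 3.64 is close to the filter, so its index followed the fall of the other Nfasc probe sets. For Ncam1 it was 6188506, a bright probe set, in the line labelled QKI shRNA. Its index was 0.26, 0.91 and 1.06 there and -0.04, -0.04 and -0.15 in the non-silencing line. All 3 arrays were higher, by 0.82 ± 0.23, which did not pass the adjustment (adjusted p = 0.120). After QKI siRNA its index was 0.93, 1.11 and 0.97 against 0.38, 0.56 and 0.59, also with no overlap, a difference of 0.49 ± 0.23 (adjusted p = 0.595). After hnRNP A1 siRNA the index was -0.14, 0.50 and 0.53.

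Of the other genes, the probe sets of lowest adjusted p were 5968088 of Nrcam, 6311855 of Cntn1, 6396567 of Cntnap1 and 6165392 of L1cam in the non-silencing line against untreated cells, with index differences of 1.29 ± 0.43, -0.48 ± 0.18, -0.68 ± 0.26 and 0.63 ± 0.28, and 5991923 of Cntn2 in the line labelled QKI shRNA, with -0.73 ± 0.23. Their adjusted p ran from 0.185 to 0.370. That of Cntn1 is a bright probe set, at 12.55 in untreated cells and 12.22 in the non-silencing line, and the others lay between 3.49 and 4.38 on average.

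The Nfasc probe sets 5879895 and 5704365 are named after their values were seen. The log2 value of 5879895 was 8.11, 8.18 and 8.31 with non-silencing siRNA and 4.16, 5.87 and 5.82 after QKI siRNA, the widest difference of any Nfasc probe set in that comparison. Relative to the rest of the gene, its index was 0.03, -0.30 and -0.06 against -2.37, -0.76 and -1.78, a difference of -1.53 ± 0.46 (adjusted p = 0.391). In the line labelled QKI shRNA the index was -0.57, -0.32 and -2.56 against -0.07, 0.39 and 0.36, a difference of -1.38 ± 0.46 (adjusted p = 0.209). The groups did not overlap in either comparison, and in the second the size rests largely on array 3. After hnRNP A1 siRNA the index was -0.61, 0.14 and 0.24, a difference of 0.03 ± 0.46 from non-silencing siRNA. In untreated cells it was 0.94, 0.76 and 0.54, above every array with non-silencing siRNA. The index thus differed between control groups too, by -0.86 ± 0.46 with non-silencing siRNA (limma, adjusted p = 0.977). In the non-silencing line it differed from untreated cells by -0.52 ± 0.46 (adjusted p = 0.696). The difference between QKI siRNA and hnRNP A1 siRNA was -1.56 ± 0.46 and did not pass the adjustment (adjusted p = 0.9997). Probe set 5704365 had the lowest adjusted p of Nfasc after QKI siRNA, with an index difference of -1.22 ± 0.30 (limma, adjusted p = 0.307). In the line labelled QKI shRNA its index differed by only -0.23 ± 0.30 (adjusted p = 0.819). Which exon either probe set reads was not analysed here.

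**Figure D5:**
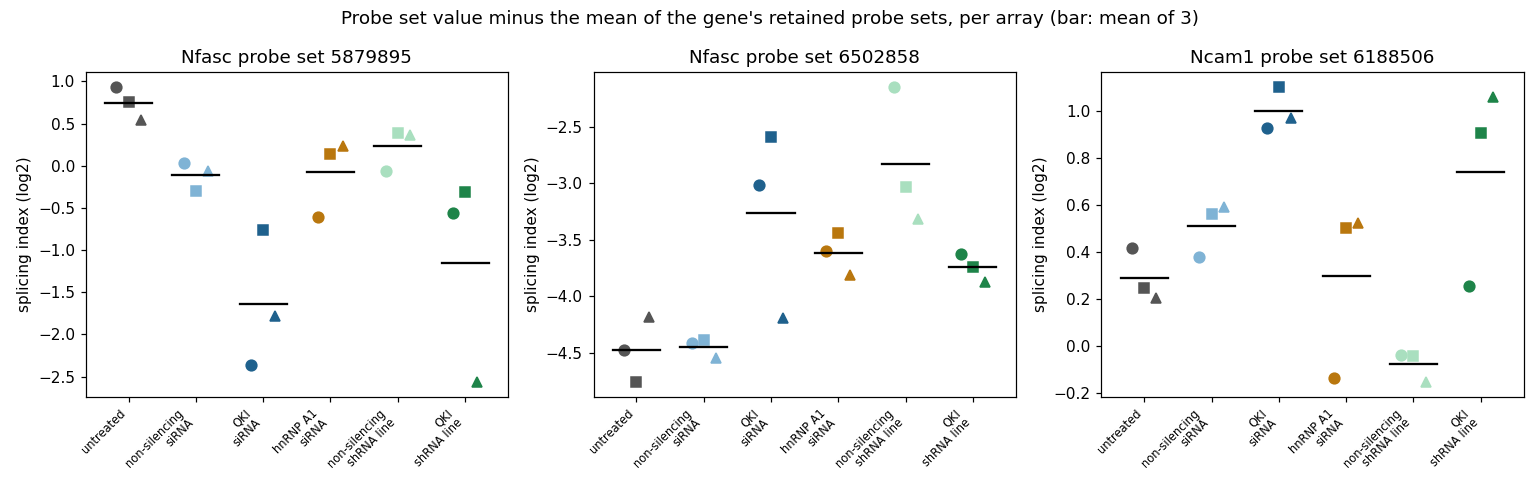
Splicing index (log2) of 2 Nfasc probe sets and 1 Ncam1 probe set on each array by group, with a bar at the mean of 3. Probe set 5879895 has its lowest means after QKI siRNA and in the QKI shRNA line, 6502858 is higher in the non-silencing line than in untreated cells, and 6188506 is higher after QKI siRNA and in the QKI shRNA line than in their controls, and no difference passed the adjustment.

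Genes of the same adhesion system were read from 3 lists. Of 21 related adhesion proteins 15 were measured, of 16 membrane anchors 15, and of 28 binding partners and modifiers 22. After QKI or hnRNP A1 siRNA against non-silencing siRNA, and with non-silencing siRNA against untreated cells, 0 genes of the 3 lists were called by limma. Against untreated cells, Ptprz1 (-1.04 ± 0.16) and Fyn (-0.82 ± 0.16) were called after QKI siRNA, where 37 clusters were called higher and 50 lower. Ptprz1 (-0.91 ± 0.16) was called after hnRNP A1 siRNA, where 38 were called higher and 18 lower. The changes that follow for the 2 targeting siRNAs are against non-silencing siRNA. After QKI siRNA the median changes of the 3 lists, in that order, were -0.0041, -0.28 and -0.23, against 0.04 over all clusters. After hnRNP A1 siRNA they were -0.04, -0.13 and -0.11, against 0.0018. With non-silencing siRNA against untreated cells they were -0.04, -0.27 and -0.28, against 0.08. Between these 2 control groups the medians of the related adhesion proteins and the partners were thus lower than after QKI siRNA. That of the anchors was slightly less low. An unadjusted p under 0.05 was found by limma after QKI siRNA for 3, 4 and 6 genes of the lists, where 9.11% of all clusters had one. After hnRNP A1 siRNA it was found for 2, 1 and 4, against 7.04% of all, and with non-silencing siRNA for 2, 2 and 4, against 10.3%.

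In the line labelled QKI shRNA, where 10.3% of all clusters were called, 4 of 15 related adhesion proteins, 2 of 15 anchors and 5 of 22 partners were. Of the related adhesion proteins 1 rose and 3 fell. Cadm4, a nectin-like protein of myelinating glia, fell by 1.14 ± 0.17 on the log2 scale (adjusted p = 0.000438) and Ncam2, the relative of Ncam1, fell by 2.21 ± 0.36 (adjusted p = 0.000771). Cntn4 fell by 0.40 ± 0.10 and Cadm3, another nectin-like protein, rose by 0.92 ± 0.22. Among the anchors, Tjp1, the tight junction scaffold, rose by 1.25 ± 0.25, and Epb41l3, a membrane skeleton protein that anchors the Caspr complex in axons, fell by 0.75 ± 0.17. Among the partners 2 rose and 3 fell: Fgfr1, a growth factor receptor that binds Ncam1, rose by 1.68 ± 0.19 (adjusted p = 4.23e-05) and the guidance cue Sema3a by 1.31 ± 0.34, while Prnp, the prion protein, fell by 1.15 ± 0.28 and brevican (Bcan), a proteoglycan of the nodal matrix, by 1.20 ± 0.31. The arrays of Prnp and Bcan overlapped between the lines. The median changes of the lists were -0.07, 0.04 and -0.09, against 0.0074 over all clusters.

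In the non-silencing line against untreated cells, where 3.26% of all clusters were called, 1 of 15 related adhesion proteins, 2 of 15 anchors and 0 of 22 partners were. Mag, the myelin-associated glycoprotein of the periaxonal membrane, fell by 1.81 ± 0.43 (adjusted p = 0.0323), about as far as Nfasc. Epb41l3 rose by 0.74 ± 0.17 and the scaffold Dlg1 fell by 0.61 ± 0.16. The change in the stable pair minus that in the siRNA pair, called for 4.71% of all clusters, was called for 1 of 15, 2 of 15 and 1 of 22 genes of the lists, Fgfr1 (1.62 ± 0.27), Tjp1 (1.57 ± 0.36), Sptan1, the alpha chain of spectrin (1.45 ± 0.38), and Cntn4 (-0.60 ± 0.14).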

How the data were processed

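Affymetrix rat exon arrays measured RNA of CG-4 cells, 3 arrays in each of 6 groups, and every array has a gene-level and an exon-level deposit. The submitters' processing notes name RMA and Partek for the deposited log2 values, without versions. Genome build and annotation: not given in the sources used here. Gene symbols come from the platform annotation, updated through RefSeq (13232 clusters matched by gene number, 39 clusters and 23034 probe sets renamed). Clusters with several symbols (620) or none (4954) were tested but not named.

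In limma 3.58.1 (R 4.3.3), lmFit with a mean for each group over the 18 arrays was followed by eBayes. The residual degrees of freedom were 12 and the prior ones 3.57. Tests were two-sided, and p-values were adjusted by Benjamini and Hochberg's method across the 18901 clusters. A call is an adjusted p under 0.05, and ± after a change is the moderated standard error. The splicing index was tested likewise over 115440 probe sets of 10080 genes with 1 symbol, where a gene needed 3 or more probe sets whose mean reached the 25th percentile. The scripts were tested on simulated data with known changes. Intensities have no read depth, so the number of arrays limits the precision. Separate cultures are not stated beyond the word biological, so p-values may measure technical spread.

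The genes, lists and tests were chosen with earlier results of these data known. Named are the 7 genes, per gene the probe set of lowest adjusted p, the 3 most like genes where group means span at least 1, and up to 4 called genes per list and comparison. Replicate numbers come from the labels. The deviations of equal numbers correlated at 0.25, 0.142 and 0.153 in the 2 shRNA lines. In the other comparisons single pairs ran from -0.299 to 0.236, and none of these comparisons had every pair above 0.1. Alternatives were other scalings, filters, variance priors, fits, controls, gene values and left-out arrays.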

Additional observations from a re-analysis of the deposited data

Results flagged for a closer look

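The change of Nfasc in the stable pair (the line labelled QKI shRNA against the non-silencing line) and that in the siRNA pair (QKI siRNA against non-silencing siRNA) differed by 1.95 ± 0.63 on the log2 scale, and the unadjusted p of the difference itself was 0.00703. The 2 changes were 0.43 ± 0.44 and -1.52 ± 0.44. With untreated cells as the control of both they were -1.44 ± 0.44 and -1.45 ± 0.44. Over all clusters the difference did not pass (limma, adjusted p = 0.0998), and it did pass with the replicate number as a block (adjusted p = 0.0463) and with only the groups compared in the fit (0.0313). Over 21 other settings the value ran from 1.65 to 2.32 and the adjusted p from 0.000489 to 0.213. The non-silencing line, the control of the stable pair, had the lowest Nfasc mean of the 6 groups, at 6.53. Qki was not called lower in the line labelled QKI shRNA (-0.25 ± 0.22), and the same difference was called for Qki (1.19 ± 0.32, adjusted p = 0.0432).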

How the results depend on the processing

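The count of the 7 genes, or of their probe sets, called equalled the reported one in 163 of 184 combinations of comparison and setting, and for probe sets it was 0 in all settings run. L1cam has no value under the 25th percentile filter. With arrays 1 and 2 only, an alternative chosen after seeing the data, the count was 2 for QKI siRNA, 2 for hnRNP A1 siRNA, 1 for the QKI shRNA line, 2 for the non-silencing line against untreated cells and 1 for the difference between the stable and siRNA pairs. In the same order, this setting called 445, 226, 2273, 1276 and 1205 of all 18901 clusters. Without the untreated and QKI shRNA arrays numbered 3 the count was 1 for the QKI shRNA line, 1 for non-silencing siRNA against untreated cells (Nrcam, -0.78, adjusted p = 0.0306) and 2 for the non-silencing line (Nfasc and Nrcam, the latter -0.80, adjusted p = 0.00667). There 2470, 197 and 1363 of all clusters were called. For the QKI shRNA line the count was also 1, Ncam1, with the replicate block (adjusted p = 0.0389), with clusters at or above the 25th percentile (0.0483) and with the mean of probe sets (0.0236). These settings called 2075 of 18901 clusters, 2021 of 14176 and 1943 of 10080 genes. For the difference between the stable and siRNA pairs it was 1, Nfasc, with the groups compared alone (0.0313, 738 clusters called) and with the replicate block (0.0463, 1025 called). For the non-silencing line the count was 0 with array medians centred, where 158 of all clusters were called. Leaving out 1 array at a time gave 0 to 1 for the QKI shRNA line (1 without its array 3, where 2203 of all clusters were called), for the non-silencing line and for the difference between the stable and siRNA pairs (1 without QKI siRNA array 3, 2.32, where 928 were called). The block changed no other call of these genes. With untreated cells as the control, Nfasc in the QKI shRNA line turned from 0.43 to -1.44, not called either way. The call was unchanged for 1229 values of single genes and named probe sets. In 108 of these, none of them called, the sign differed from the reported one. Over all clusters, calls ran from 0 to 445 for QKI siRNA (reported 0), 385 to 2470 for the QKI shRNA line (1943), 0 to 226 for hnRNP A1 siRNA (1), 2 to 197 for non-silencing siRNA (15), 158 to 1363 for the non-silencing line (616) and 360 to 1313 for the difference (890). Over all probe sets, calls of the index ran from 147 to 960 in the QKI shRNA line (653), 2 to 420 in the non-silencing line (99), 0 to 21 with non-silencing siRNA (4), and up to 174, 34 and 25, all with diffSplice, where 0 were reported. The causes were not tested. With 3 arrays per group and probe values near the floor for Cntn2, Cntnap1 and L1cam, small changes could not be seen.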
